A study of Mus musculus with 151 samples.

Results

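Single oocytes from 12-week-old female mice were compared between animals conceived by in vitro fertilization (IVF) and naturally conceived animals (Natural). The libraries were taken from the 12-week single-oocyte count table by their treatment label, which gave 40 IVF and 36 Natural oocytes, 76 of the 151 samples in the series. The series' design text divides the 12-week oocytes differently between the groups, and every comparison here rests on the labels. The study followed female offspring of both modes of conception in ovary, germ cells, oocytes and cumulus cells from before birth to 39 weeks. Natural offspring came from CF-1 females mated with B6/SJL males. IVF offspring came from eggs of superovulated CF-1 females fertilized with B6/SJL sperm, cultured to the blastocyst stage in KSOM medium with amino acids and transferred to pseudopregnant CF-1 recipients. Pups of both groups were delivered by c-section, IVF pups at a later day of gestation, and fostered to CF-1 dams. The 2 groups therefore differed in superovulation of the dam, fertilization, culture, transfer and day of delivery together, and the comparison cannot tell these steps apart. All the 12-week females were themselves superovulated with eCG and hCG before collection, so every oocyte here was ovulated after hormone treatment. The mice were offspring of an outbred dam strain and hybrid sires, and oocytes of one female share her genotype.

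The library names divide each group into 5 sets, the oocytes whose names share the first 2 fields. Natural sets 1 to 5 held 8, 8, 5, 8 and 7 oocytes, and each IVF set held 8. Oocytes of a set may share a source and cannot be taken as independent replicates. Counts were therefore summed over each set, and groups were compared over 5 sets against 5. The labels do not say whether a set is a female, a litter or a collection, and p-values measure the spread between sets only. The first field of the name took 2 values among the Natural sets and 2 others among the IVF sets, so whatever it marks cannot be told apart from the group. A cumulus library whose name shares its first 2 fields with IVF set 1 is labelled Natural, while the 8 oocytes of that set are labelled IVF and were used as such.

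A fully grown oocyte stores the mRNAs that will carry it through meiosis, fertilization and the first divisions, and it stops transcribing them before ovulation. From then on stored transcripts are masked, activated or destroyed, in large part through the length of their poly(A) tails. Libraries primed on the poly(A) tail, as these were, count polyadenylated transcripts, so a level here reflects both how much of an mRNA is present and whether it carries a tail.

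Total counts per oocyte ranged from 839781 to 10879166, with medians of 5476704 in Natural and 5055610 in IVF oocytes, and the sums per set ranged from 19624072 to 58259515. Levels are given as CPM, counts scaled to library size with edgeR's TMM factors, and are compared between samples and not between genes. Transcripts of 3 oocyte genes were found in every one of the 76 libraries: Zp3, a zona pellucida protein and sperm receptor, and Gdf9 and Bmp15, the growth factors through which the oocyte acts on its cumulus cells. Median Zp3 was 82.7 CPM in Natural and 97.2 CPM in IVF oocytes, and median Gdf9 was 18003 and 19023 CPM. In the 10 cumulus cell columns of the same age the medians of Zp3, Gdf9 and Bmp15 were 0, 11.0 and 2.57 CPM. The summed set levels of these 3 genes overlapped between the groups, with log2 fold changes (IVF over Natural) of 0.46, 0.03 and 0.01 and adjusted p of 0.826, 0.992 and 0.993 (edgeR's quasi-likelihood test). Summed cumulus and granulosa markers were 34.6 to 1173 CPM in Natural and 35.7 to 735 CPM in IVF oocytes against 12544 to 32187 CPM in cumulus cells. Of these markers, Foxl2, a granulosa cell transcription factor, and Amhr2, the receptor of anti-Müllerian hormone, were at 0 in 71 and 55 of the 76 oocytes. In cumulus cells their medians were only 1.99 and 11.9 CPM. Cyp11a1 and Hsd3b1, with cumulus cell medians of 9296 and 11250 CPM, had counts in all 76 oocytes. Their medians were 9.88 and 11.8 CPM in Natural and 9.24 and 10.4 CPM in IVF oocytes. Of 14 cumulus markers tested between the groups 1 (Ptx3) had an unadjusted p below 0.05, and the median log2 fold change was -0.23. None of 5 oviduct epithelium markers did.

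Of the 76 oocytes 10 stood apart from the rest, and they are described before the comparison, because they were unevenly placed among the sets. Gdf9 lay between 109 and 477 CPM in these 10 libraries and between 9328 and 27614 CPM in the other 66, with no library in between. They comprised 4 Natural oocytes (2 of set 2, and 1 each of sets 4 and 5) and 6 IVF oocytes (4 of set 3 and 2 of set 4). The limit of 1000 CPM that separates them was chosen after the values were seen, and the ranges that follow are a description without a test. Their median correlation with all other oocytes was 0.649 to 0.775, against 0.811 to 0.896 for the other 66.

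Within these 10 oocytes, some of the best known maternal transcripts were low and others were not. Mos, the kinase that holds the egg at metaphase II, was 1.60 to 14.8 CPM against 438 to 2352 CPM in the other oocytes. Plat, a tissue plasminogen activator stored as a dormant mRNA, was 13.2 to 79.2 CPM against 3379 to 14766 CPM. H1foo, the oocyte linker histone, was 74.0 to 247 CPM against 10036 to 23459 CPM, and none of these ranges overlapped. The same held for the spindle checkpoint kinase gene Bub1b (1.60 to 32.1 against 1348 to 4179 CPM) and for Zar1, a maternal-effect gene that binds stored mRNAs (4.00 to 46.7 against 650 to 4242 CPM). By contrast, Bmp15 (1278 to 5767 against 2647 to 6204 CPM) and Btg4, an adaptor for the deadenylation of maternal mRNAs (3274 to 12124 against 5181 to 9208 CPM), overlapped widely. Of the 14444 genes tested between the groups, 776 were lower in every one of the 10 than in every other oocyte, and 249 were higher in every one.

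Among the higher genes was Lars2, which encodes the mitochondrial leucyl-tRNA synthetase (593 to 2316 against 40.9 to 196 CPM). Dcp2, the catalytic mRNA decapping enzyme, was 249 to 953 CPM against 57.3 to 140 CPM. Prdx2, a peroxiredoxin, was 332 to 1995 CPM against 47.3 to 208 CPM. Zfp352, a gene of the 2-cell stage, had a median of 8.35 CPM and a maximum of 338 CPM in the 10, against a maximum of 1.59 CPM in the other 66. Tcstv3, of the same stage, reached 703 CPM against at most 22.8 CPM, though its median of 4.42 CPM in the 10 was below the 7.25 CPM of the others. The 10 libraries were also shallower, with 839781 to 4991194 counts against 2591803 to 10879166, and part of the mitochondrial RNA described later sat in them. What sets these oocytes apart was not tested. Values without these 10 are given beside the called genes and beside the results that changed most without them.

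**Figure D1:**
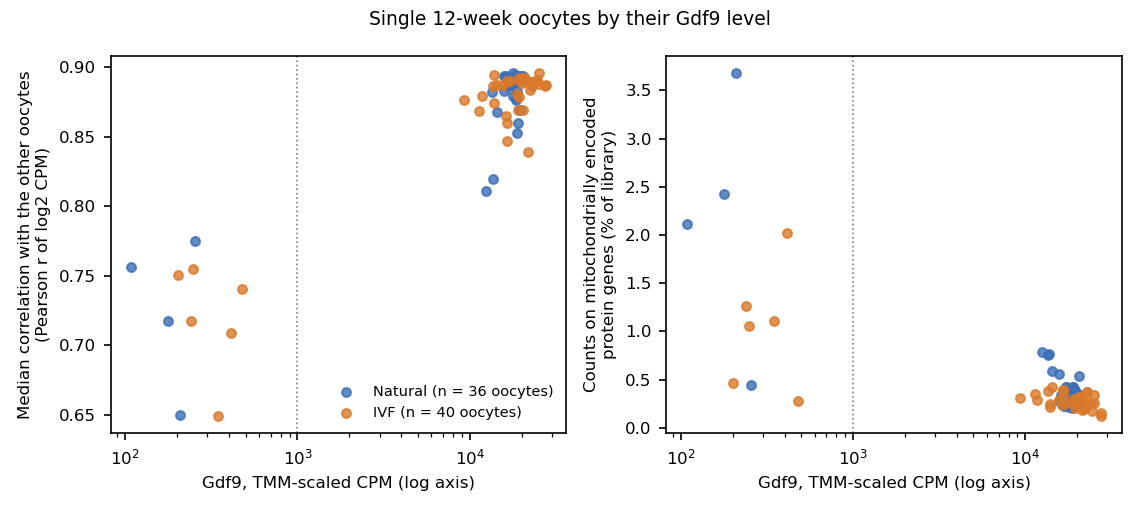
Each point is 1 of the 76 oocytes, with its Gdf9 level in CPM on a log axis against its median correlation with the other oocytes (left) and the percentage of its counts on mitochondrially encoded protein genes (right). The 10 oocytes left of the dotted line at 1000 CPM have correlations of 0.775 or lower, and both groups are present on both sides of the line.

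The main question was whether transcripts of ovulated oocytes differ with mode of conception at 12 weeks. Few passed a test that takes the set as the unit. Of 14444 genes tested, 3 were higher and 1 was lower in IVF oocytes at an adjusted p below 0.05, which is 0.0277% of the genes. They were Rnase6, Dbt and D430041D05Rik, which rose, and Fam199x, which fell. DESeq2 on the same sums called 34 higher and 20 lower of 19302 genes, or 0.28%, and all 4 genes were among them. At an unadjusted p below 0.05 edgeR gave 570 higher and 393 lower genes, 6.67% of those tested, and the median log2 fold change over all genes was 0.02. Treating every oocyte as a sample called 746 genes with edgeR and 1091 with DESeq2, but oocytes of a set may share a female and cannot be taken as independent.

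Over all genes a separation of the groups was not detectable. The share of the variance between sets that lay between IVF and Natural was 12.6%, where the average over all 252 ways of dividing the 10 sets was 11.1% (one-sided exact permutation p = 0.214). An oocyte's median correlation with oocytes of its own set was 0.893, with other sets of its group 0.884 and with the other group 0.886, as medians over the 76 oocytes.

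Rnase6 encodes a secreted ribonuclease of the RNase A family with antimicrobial activity, best known from macrophages (chromosome 14, 51123908 to 51132187, mm10). Its level was 2.89, 0.971, 0.982, 2.11 and 2.12 CPM in Natural sets 1 to 5 and 11.7, 15.1, 15.0, 9.74 and 12.3 CPM in IVF sets 1 to 5. Every IVF set was above every Natural set. The log2 fold change was 2.79 ± 0.31 (SE, n = 5 sets per group, adjusted p = 0.0093 by edgeR). All 40 IVF oocytes had at least 1 count of Rnase6, as did 29 of the 36 Natural oocytes. Leaving out each set in turn kept it past the threshold in all 10 fits (adjusted p 0.0079 to 0.045), and without the 10 oocytes that stood apart it was 2.86 (adjusted p = 0.0014), while the call was lost when each oocyte was thinned to 800000 counts (adjusted p = 0.124). Among leukocyte markers, the medians of Ptprc, Cd52, C1qa, Tyrobp and Cd74 were 0 in both groups, and those of Cd68 were 0.620 and 0.695 CPM. The macrophage lysozyme gene Lyz2 had medians of 0.279 CPM in Natural and 1.62 CPM in IVF oocytes, with a log2 fold change of 2.96 (adjusted p = 0.451). The part of leukocyte RNA in the Rnase6 difference was not tested.

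Dbt encodes the E2 subunit of the branched-chain alpha-keto acid dehydrogenase, the mitochondrial complex that commits leucine, isoleucine and valine to breakdown (chromosome 3, 116513070 to 116549981). It was 7.51, 6.13, 6.44, 7.32 and 5.87 CPM in the Natural sets. The IVF sets read 125, 111, 56.9, 118 and 9.09 CPM, so 4 of the 5 were far above the Natural level and set 5 was only just above it. The step was just as clear in single oocytes once the 10 that stood apart were left aside: IVF sets 1 to 4 spanned 69.4 to 153 CPM, IVF set 5 spanned 6.87 to 13.5 CPM and the 32 Natural oocytes spanned 1.62 to 16.3 CPM. The log2 fold change was 3.66 ± 0.52 (adjusted p = 0.0402), and 3.84 (adjusted p = 0.0355) without the 10. Dbt lost the call without any one of the 5 Natural sets or of IVF sets 2, 3 and 4 (adjusted p up to 0.195).

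D430041D05Rik, a protein-coding gene of chromosome 2 (104143073 to 104411870), was close to absent from Natural oocytes. Natural sets held 0, 0, 0, 3 and 10 counts in total, and the IVF sets held 25, 279, 259, 389 and 688 counts. These are 0, 0, 0, 0.0682 and 0.21 CPM against 0.451, 6.39, 9.99, 7.91 and 15.6 CPM, without overlap. At least 1 count was present in 3 of 36 Natural and 35 of 40 IVF oocytes. The fitted log2 fold change of 6.94 ± 1.01 (adjusted p = 0.0402) rests on 13 Natural counts and on the prior count of the fit. It was 7.14 (adjusted p = 0.0359) without the 10 oocytes that stood apart. IVF set 1 stood below the other IVF sets, and 8 of the 10 fits that leave out 1 set no longer called the gene.

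Fam199x, an X-linked gene of little known function (chromosome X, 137049594 to 137082503), was the one gene that fell. Its level was 1161, 1062, 917, 724 and 903 CPM in the Natural sets and 554, 436, 496, 433 and 387 CPM in the IVF sets. The lowest Natural set was above the highest IVF set. Single oocytes overlapped little, with 304 to 712 CPM in IVF and 581 to 2884 CPM in Natural oocytes. The log2 fold change was -1.05 ± 0.15 (adjusted p = 0.0402), and -0.92 (adjusted p = 0.0359) without the 10 oocytes that stood apart. Its call was also lost in 8 of the 10 fits that leave out 1 set, with adjusted p no higher than 0.195 and fold changes of -1.13 to -0.97.

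**Figure D2:**
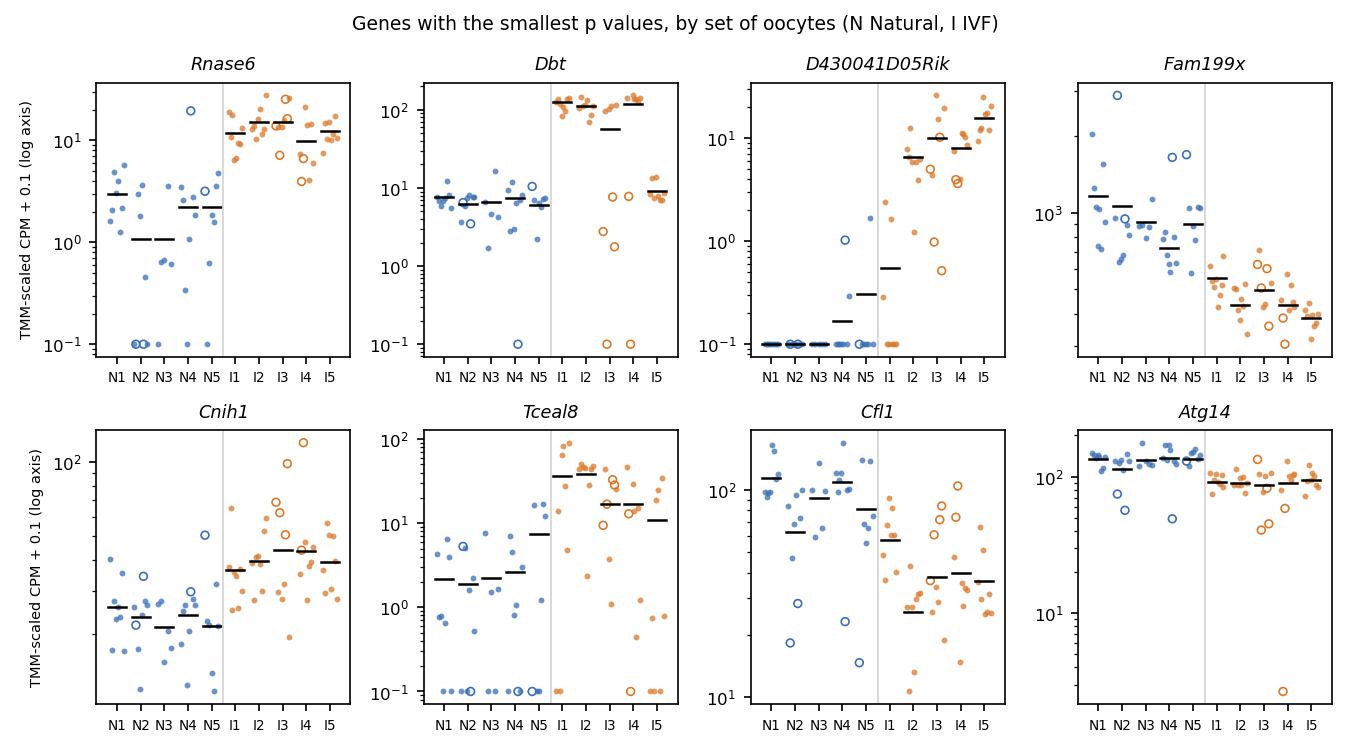
Each point is 1 oocyte, in CPM plus 0.1 on a log axis, by set (N1 to N5 Natural, I1 to I5 IVF), bars are the levels of the summed sets and open circles are the 10 oocytes that stood apart. Dbt is high in the main oocytes of IVF sets 1 to 4 and at the Natural level in set 5, and the Rnase6 and Fam199x bars of the groups do not overlap.

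Beyond the 4 called genes, set levels of the groups did not overlap for 201 genes, 1.39% of those tested, 122 higher and 79 lower in IVF. After thinning each oocyte to 800000 counts the split was 69 higher and 68 lower. Without the 10 oocytes that stood apart it was 119 higher and 74 lower, and only 99 of those genes were among the 201. Within the 201 genes the direction went with abundance. With a mean of at least 10 CPM, a level that 5684 tested genes had, 20 were higher and 57 lower. Below 10 CPM 102 were higher and 22 lower. The signs of all tested genes at these levels were not set beside this split, so it cannot be read as particular to the 201. The genes named in the next paragraph missed the adjusted threshold and were picked after their values were seen.

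Cofilin 1 (Cfl1), which severs actin filaments, was 114, 62.9, 91.1, 109 and 80.6 CPM in Natural sets and 57.6, 25.7, 37.9, 39.7 and 36.3 CPM in IVF sets. Its log2 fold change was -1.22 ± 0.22 (adjusted p = 0.146), and -1.42 with an adjusted p of 0.0359 once the 10 oocytes that stood apart were left out. Atg14, a subunit of the lipid kinase complex that starts autophagosomes, showed the tightest groups, 113 to 136 CPM in Natural sets and 86.7 to 94.8 CPM in IVF sets. Its log2 fold change was -0.53 ± 0.10 (adjusted p = 0.258), and -0.52 (adjusted p = 0.0359) without the 10. Thus 6 genes were called in the 66 remaining oocytes, 3 in each direction, and they held all 4 of the genes above.

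Cnih1, an export receptor of the endoplasmic reticulum, was 21.2 to 25.5 CPM in Natural and 36.2 to 43.9 CPM in IVF sets (log2 fold change 0.81 ± 0.12, adjusted p = 0.0534, and 0.67 with an adjusted p of 0.171 without the 10). Tceal8, an X-linked member of the transcription elongation factor A-like family, was 1.79 to 7.36 CPM against 10.7 to 38.7 CPM. Its single oocytes were uneven in every IVF set, and in set 5 they ran from 0 to 34.0 CPM around a median of 0.663 CPM. Complement C3 (0 to 0.358 against 0.545 to 6.27 CPM) and the RNA sensor gene Tlr8 (3.60 to 11.6 against 12.0 to 20.1 CPM) were likewise higher in every IVF set. C3 was near the floor in most oocytes. Without the 10, its median was 0.728 CPM and its maximum 43.5 CPM in IVF oocytes. Among more abundant transcripts, Parp12, a mono-ADP-ribosyltransferase, was 1707 to 2428 CPM in Natural and 1332 to 1584 CPM in IVF sets. The RNA helicase gene Ddx3x was 787 to 1048 CPM against 604 to 754 CPM, and Mapre1, which encodes the microtubule plus-end protein EB1, was 867 to 1026 CPM against 766 to 830 CPM. For all 3 of these the groups overlapped when the 10 oocytes were left out, and the log2 fold changes were then -0.41, -0.30 and -0.14 in place of -0.48, -0.38 and -0.24.

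The study names 11 genes in these oocytes by a full symbol, beside an Ercc gene whose member it does not give. Since it chose the 11 on the same libraries they are no independent evidence of a direction. None of the 11 was called over sets by edgeR, and DESeq2 on the same sums called 1. The median of their log2 fold changes was -0.56, 3 had an unadjusted p below 0.05, all lower in IVF (Bcat2, Ethe1 and CYTB), and the levels of 1 did not overlap. What the sets show is that several of these genes took 2 levels, and that, leaving aside the 10 oocytes that stood apart, the oocytes of a set shared the level.

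Bcat2 encodes the mitochondrial aminotransferase of the first step of branched-chain amino acid breakdown, just ahead of the complex that contains Dbt (chromosome 7, 45568967 to 45589710). Natural sets read 28.1, 30.8, 24.2, 24.0 and 19.4 CPM. IVF set 1 lay within that range at 23.7 CPM, while IVF sets 2 to 5 read 1.85, 2.04, 1.93 and 1.07 CPM. Every oocyte of IVF set 1 had 12.9 CPM or more, and leaving aside the 10 that stood apart no oocyte of IVF sets 2 to 5 had more than 4.20 CPM. The log2 fold change was -2.03 ± 0.73 (adjusted p = 0.699), and -3.88 (adjusted p = 3.13e-05) without IVF set 1, a set singled out by this same measure. The 1 IVF set at the Natural level for Bcat2 was set 1, and for Dbt it was set 5. IVF set 1 is the set whose first name fields recur in a cumulus library labelled Natural.

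Aurkc, a meiotic Aurora kinase gene, had 2 levels in both groups. Natural sets 1 to 3 read 251, 185 and 239 CPM and sets 4 and 5 read 48.5 and 56.4 CPM. IVF sets 1, 2, 4 and 5 read 65.3, 74.3, 58.6 and 59.4 CPM, and set 3 read 161 CPM. Within IVF set 3 the 4 oocytes that did not stand apart held 235 to 333 CPM, the level of Natural sets 1 to 3. Its log2 fold change was -0.90 ± 0.45 (adjusted p = 0.775).

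Hps5, a subunit of a complex needed for lysosome-related organelles, showed 2 levels among Natural sets alone. Natural sets 1 to 3 were at 27.3, 18.7 and 27.9 CPM, and sets 4 and 5, at 81.8 and 77.5 CPM, lay in the range of the IVF sets (49.1 to 82.4 CPM). Il17f, a cytokine gene of the interleukin 17 family, read 27.8, 4.14, 21.1, 3.68 and 2.99 CPM in Natural sets and 37.8, 28.2, 2.04, 44.6 and 34.2 CPM in IVF sets, so each group had sets at either level. Cdc42ep3, an effector of the small GTPase CDC42, was 28.4 and 14.6 CPM in IVF sets 1 and 4 and no more than 6.36 CPM in the other 8 sets. The log2 fold changes of Hps5, Il17f and Cdc42ep3 were 0.58 ± 0.37, 1.31 ± 0.73 and 1.56 ± 0.74, with adjusted p of 0.832, 0.808 and 0.758. Hps5 depended on which Natural sets were kept, at 1.58 without the Natural sets 3 to 5 and 0.16 without sets 1 and 2.

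Ethe1, the mitochondrial persulfide dioxygenase of sulfide breakdown, differed from these in that the set levels of its 2 groups did not overlap. Its IVF sets were even, while Natural sets 4 and 5 lay below Natural sets 1 to 3. Ethe1 was 8.16, 8.28, 8.08, 5.41 and 4.56 CPM in Natural sets and 3.34, 3.43, 3.70, 3.88 and 3.86 CPM in IVF sets, a log2 fold change of -0.92 ± 0.22 (adjusted p = 0.490). Without the 10 oocytes that stood apart the groups overlapped and the log2 fold change was -0.86. Rfxank, a regulator of MHC class II genes, was 1.09 to 5.19 CPM in Natural and 4.96 to 7.36 CPM in IVF sets (log2 fold change 0.67 ± 0.39, adjusted p = 0.815).

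**Figure D3:**
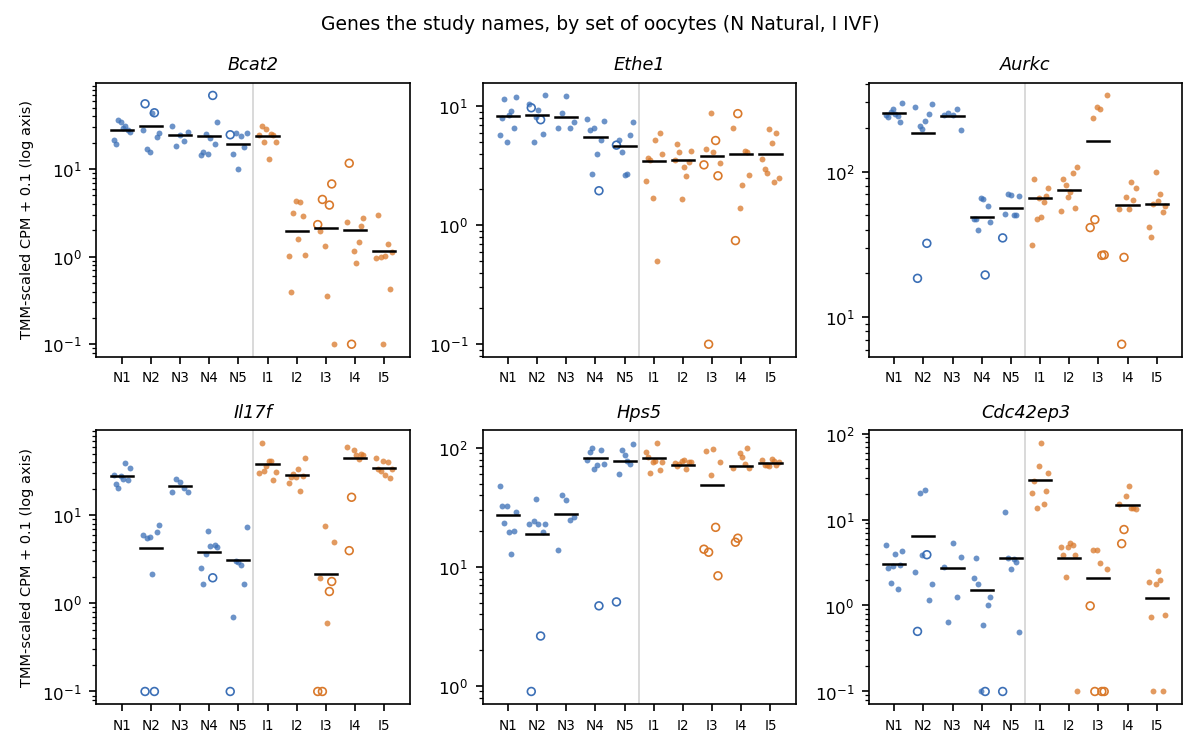
Each point is 1 oocyte, in CPM plus 0.1 on a log axis, by set (N1 to N5 Natural, I1 to I5 IVF), bars are the levels of the summed sets and open circles are the 10 oocytes that stood apart. Apart from the open circles, for Bcat2, Aurkc, Il17f and Hps5 the oocytes of a set cluster at either a high or a low level, and for Bcat2 only IVF set 1 joins the Natural sets.

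Such differences between sets were not limited to the genes that the study names. The share of the variance among oocytes of a group that lay between sets was 7.43% for the median gene, with quartiles of 1.15% and 15.5%. It was above 50% for 262 genes, 1.81% of those tested. Of the 262, 25 had an unadjusted p below 0.05 between IVF and Natural, beside 6.67% of all genes tested. Set levels of the groups did not overlap for 1 of the 262, beside 1.39% of all genes tested. Genes chosen for a wide spread between the sets of a group can hardly lack overlap, so this low count follows from the choice. Among genes with a mean of at least 10 CPM the between-set share was above 80% for 26. The examples that follow were picked after their values were seen, and each was far lower in some sets than in others. Dph6, Gm34699, Kcnk18 and Khdc1c had shares of 94.0% to 95.7%.

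Dph6, an enzyme of diphthamide synthesis, had the highest share at 95.7%. It was 136 to 482 CPM in 9 sets, and in IVF set 5 it was 2.36 CPM, with no oocyte above 3.98 CPM. Gm34699 was at 0 counts in all 8 oocytes of Natural set 1 and 15.4 to 68.1 CPM in the other sets. The potassium channel gene Kcnk18 was 24.2 to 52.1 CPM in 5 sets (Natural 1 and 4, IVF 2, 3 and 4) and 0 to 0.358 CPM in the other 5. Khdc1c, of an oocyte-expressed KH domain family with close copies, was 397 to 724 CPM in Natural sets 1 and 2 and IVF sets 1 and 5, and 14.8 to 23.8 CPM in the other 6. Each group had sets at both levels for Kcnk18 and Khdc1c, and their log2 fold changes were 0.80 and -0.31 (adjusted p of 0.959 and 0.981). Ddx4, the germ cell RNA helicase Vasa, was 341 and 288 CPM in Natural sets 4 and 5 and 18.1 to 37.3 CPM in the other 8 sets, which gave -2.43 ± 0.70 (adjusted p = 0.699).

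The pathways of oocyte competence were then read as gene lists, each set beside the 6.67% of all tested genes with an unadjusted p below 0.05 and the overall median log2 fold change of 0.02. Dbt was the only listed gene called by edgeR, while DESeq2 on the same sums called 6 members, counted once per list, in 5 lists. Members given as higher or lower are those with an unadjusted p below 0.05 unless their sign alone is named. The lists were chosen with earlier results of these data known. The egg coat and sperm receptor genes (10 tested) had no member with an unadjusted p below 0.05 and a median of 0.12. Of the 19 maternal-effect genes, which include the subcortical maternal complex that the early embryo depends on, 2 were higher and 4 lower at an unadjusted p below 0.05, 31.6%, with a median of -0.09. The 4 lower ones were Nlrp4e, Nlrp4f, Nlrp9a and Nlrp9c, close relatives in 1 gene family among which reads may be shared, with log2 fold changes of -0.41, -0.36, -0.40 and -0.35. The 2 higher ones were Khdc3 (0.64) and Zar1l (0.42).

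Genes of meiotic arrest and chromosome segregation gave similar mixtures. Of 25 genes of meiotic resumption and metaphase II arrest, 3 were higher (Cdc25c, Mapk3 and Ensa) and 1 lower (Map2k1), with a median of -0.03. Map2k1, the kinase below Mos in the arrest pathway, was 852 to 1133 CPM in Natural and 633 to 823 CPM in IVF sets without overlap, a log2 fold change of -0.33 ± 0.12 (adjusted p = 0.699). Without the 10 oocytes that stood apart its groups overlapped, at -0.23. Mos itself was 0.07. Mapk3 and Ensa were both higher in the 10 oocytes that stood apart, at medians of 112 and 62.9 CPM against 22.6 and 7.91 CPM. Without the 10 their log2 fold changes were 0.33 and 0.18 in place of 0.83 and 1.02, and that of Cdc25c was 0.57 in place of 1.38. Of 22 Aurora kinase, kinetochore and checkpoint genes, 1 was higher (Aurkb, 0.55) and 2 were lower (Mad2l1, -0.32, and Gsg2, which encodes the kinase haspin, -0.43). Of 17 cohesin and separase genes 3 were lower and none higher: the cohesin release factor gene Wapl (-0.52) and the cohesin acetyltransferase genes Esco1 (-0.38) and Esco2 (-0.54). Wapl sets were 292 to 429 CPM in Natural and 216 to 291 CPM in IVF, which met at their edges without crossing, and they overlapped without the 10 oocytes (-0.43). Of 26 spindle and microtubule genes 2 were higher, the tubulin genes Tubb2a (0.68) and Tubb2b (0.76, and 0.17 without the 10).

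Of 33 genes of mRNA storage and decay, 1 was higher and 2 lower, with a median of -0.06. Cnot7, a deadenylase of the CCR4-NOT complex, was 2210 to 3316 CPM in Natural sets and 1822 to 2231 CPM in IVF sets (log2 fold change -0.40 ± 0.12, adjusted p = 0.699). Its adaptor Btg4 was 0.02 ± 0.10. Of 28 DNA methylation and histone enzymes 2 were higher (Dnmt3l, 0.60, and Kdm5b, 0.75) and 1 lower (Kdm6b, -0.33). Dnmt3l was 0.29 and Kdm5b 0.17 without the 10 oocytes. Among 22 actin and cortex genes Cfl1 alone had an unadjusted p below 0.05, among 17 piRNA genes Ddx4 alone and among 16 egg activation genes Calm2 alone (1.15, and 0.56 without the 10). None of 9 oocyte transcription factors and 4 secreted growth factors did.

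Energy metabolism was read in 4 lists. The mitochondrially encoded protein genes had 9 of 13 members tested, 7 of them lower in IVF by sign, with a median of -0.29 and 1 at an unadjusted p below 0.05. That 1 was CYTB, cytochrome b of complex III, at 908 to 2342 CPM in Natural and 785 to 1306 CPM in IVF sets. Its log2 fold change was -0.61 ± 0.24 (adjusted p = 0.707 by edgeR). COX1, subunit 1 of complex IV, was 2321, 1818, 945, 882 and 2218 CPM in Natural and 848, 863, 1702, 691 and 1090 CPM in IVF sets (-0.66 ± 0.31, adjusted p = 0.745). For both genes each group reached into the range of the other. ND1 was -0.56 ± 0.30, and ND3, which few reads covered, was 1.24 ± 1.19, where the study lists it as lower in IVF. Nuclear copies of mitochondrial genes could take part of such reads.

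The nuclear oxidative phosphorylation genes had 77 members tested, of which 53 were higher and 24 lower in IVF by sign, with a median of 0.10. Only 2 of the 77, Cox6a1 and Cox7a2, had an unadjusted p below 0.05, 2.60%, a share under that of all genes. Of 77 mitochondrial ribosomal protein genes 4 were higher and none lower, with a median of 0.09, and of 82 cytosolic ones none passed an unadjusted p of 0.05 in either direction (median 0.12). In the list of mitochondrial dynamics, import and mitochondrial DNA genes (28 tested), 2 were higher (Nrf1 and Tomm20) and 1 lower (Dnm1l, -0.29), 10.7%. Tomm20 was near the floor, with means of 0.818 CPM in Natural and 1.24 CPM in IVF sets without the 10 oocytes that stood apart. Without the 10, neither Tomm20 (0.60) nor Dnm1l (-0.22) had an unadjusted p below 0.05. The transcription factor gene Nrf1 was 18.9 to 30.4 CPM in Natural and 29.9 to 43.6 CPM in IVF sets (0.72 ± 0.17, adjusted p = 0.490, and 0.59 without the 10). The amino acid and sulfide breakdown list (18 tested) held Dbt higher and Bcat2, Ethe1 and Hibch lower at an unadjusted p below 0.05, 22.2%, with a median of 0.06.

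Of 43 DNA repair and damage genes 4 were higher and 1 lower, among them the excision repair genes Ercc3 (0.76 ± 0.28) and Ercc4 (1.01 ± 0.42). IVF set 3 held the highest level of Ercc4, 8.95 CPM, against 2.09 to 4.68 CPM in the other IVF sets and 1.59 to 2.95 CPM in Natural sets. Without the 10 oocytes that stood apart, 4 of them in that set, its log2 fold change was -0.03, and that of Ercc3 was 0.61. Of 36 ribosome biogenesis genes 3 were higher (Bop1, Nop2 and Nhp2, at 1.26, 2.53 and 1.64). These were 0.76, 0.11 and 0.05 without the 10 oocytes, none with an unadjusted p below 0.05. Of 25 TOR signalling genes 1 was higher (Lamtor1, 0.51 ± 0.22). Of 27 antioxidant, 40 proteasome, 20 imprinted and 15 immediate early genes none had an unadjusted p below 0.05. Autophagy genes (20 tested) had Atg14 alone, and of 24 cholesterol genes Nsdhl was higher (0.73, and 0.20 without the 10). Of 23 heat shock and 21 cell death genes 1 each was higher. Of 11 genes of the 2-cell stage only 3 could be tested, and 2 of them (Tcstv1 and Tcstv3) had an unadjusted p below 0.05. Their log2 fold changes were 0.59 and 1.89, and 0.37 and 0.43 without the 10, where neither had an unadjusted p below 0.05.

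**Figure D4:**
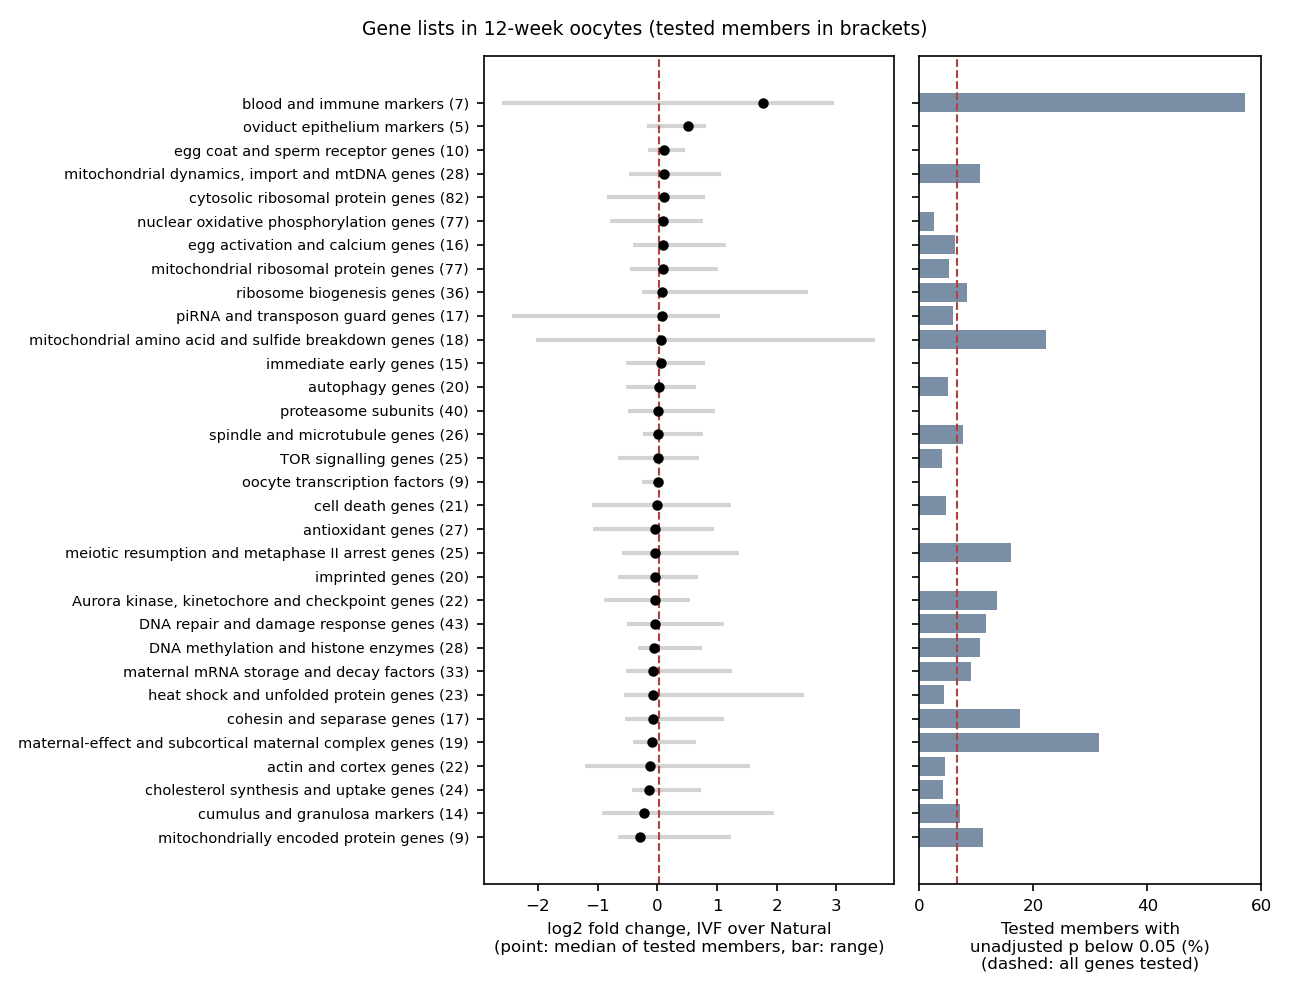
For each gene list the point is the median log2 fold change of tested members (IVF over Natural) with a bar from the lowest to the highest member (left), and the bar on the right is the percentage of members with an unadjusted p below 0.05. Most medians lie within 0.2 of the dashed line at 0.02 for all genes, and the list that departs furthest is that of blood and immune markers at 1.77.

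Some markers of blood cells were higher in most IVF sets, none past the adjusted threshold of edgeR and none without overlap. Of 11 blood and immune markers 7 could be tested, 6 were higher in IVF by sign and 4 had an unadjusted p below 0.05. The 4 were Lyz2 and the globin genes Hbb-bs, Hbb-bt and Hba-a1, with log2 fold changes of 2.96, 1.77, 2.01 and 1.91. The 1 member lower by sign was at -2.60, without an unadjusted p below 0.05. Single oocytes reached 70.2 CPM of the leukocyte marker Cd74 in Natural and 5.65 CPM in IVF. Hbb-bs was 9.60 to 40.1 CPM in Natural sets and 63.7, 66.3, 111, 183 and 3.70 CPM in IVF sets 1 to 5, so IVF set 5 was below all Natural sets. Without the 10 oocytes that stood apart its log2 fold change was 1.60. The summed list ranged from 0.805 to 235 CPM over Natural and from 1.66 to 2258 CPM over IVF oocytes. Rnase6, C3 and Tlr8, which leukocytes also express, were higher in every IVF set than in every Natural set, C3 at levels near the floor in most oocytes. Globin levels do not measure leukocyte RNA. The part of carried-over blood RNA in these differences was not tested.

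Among measures of each oocyte as a whole no difference between the groups passed the exact permutation test over sets, whose smallest possible two-sided p is 0.00794. Counts on the 13 mitochondrially encoded protein genes were 0.559% ± 0.204 of the library in Natural and 0.394% ± 0.185 in IVF (SD, n = 5 sets, means over oocytes, exact p = 0.238). Without the 10 oocytes that stood apart they were 0.371% and 0.273% (exact p = 0.198), and in the 10 the share was 0.280 to 3.68%. After thinning to 800000 counts 10689 ± 302 genes were detected in Natural and 11075 ± 398 in IVF oocytes (exact p = 0.127, and 0.365 without the 10).

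The spread between oocytes of a set was the SD of log2 CPM in thinned counts, taken as the median over tested genes. This spread was 0.574 ± 0.105 in Natural and 0.607 ± 0.180 in IVF (exact p = 0.722). It was highest in IVF sets 3 and 4, at 0.831 and 0.772, the sets with 4 and 2 of the 10 oocytes that stood apart. Without the 10 it was 0.464 ± 0.0134 and 0.466 ± 0.0278 (exact p = 0.865). Summed cumulus markers were 188 ± 95.0 CPM in Natural and 173 ± 59.0 CPM in IVF sets (exact p = 0.762). Without the aromatase gene Cyp19a1 they were 145 and 129 CPM, since its median was 42.6 and 45.9 CPM in oocytes and 1.88 CPM in cumulus cells. Over these 4 measures the Benjamini-Hochberg adjusted p were 0.476, 0.476, 0.762 and 0.762.

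The genes whose set levels did not overlap were unevenly placed on the chromosomes, described here without a test. Chromosome 14 held 17 such genes, 3.71% of its tested genes, and the X chromosome 13, 2.80%, beside 1.39% of all genes. Chromosome 14 also ranked first by the share with an unadjusted p below 0.05, 11.8%. Rnase6, Cnih1 and Atg14 are on this chromosome. So are Gulo, the last enzyme of vitamin C synthesis (65986786 to 66009254, 2.11 ± 0.71 CPM in Natural and 4.67 ± 0.96 CPM in IVF sets, overlapping without the 10 oocytes), Dad1, a subunit of the oligosaccharyltransferase (54235485 to 54253929, 9.01 ± 1.59 and 15.2 ± 2.11 CPM), and Mipep, a mitochondrial peptidase (60784562 to 60905481, 43.2 ± 5.66 and 24.8 ± 8.27 CPM). Wapl lies there too (34672379 to 34747983). Of the 17 genes 10 were higher and 7 lower in IVF. Among the 17, Pxk, Wapl, Supt16, Gulo and Gm33473 overlapped between the groups when the 10 oocytes that stood apart were left out.

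**Figure D5:**
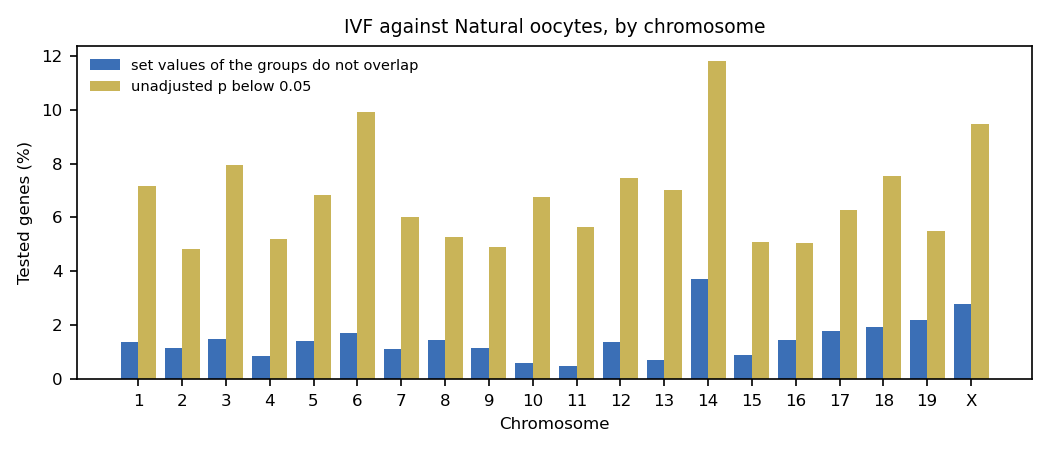
Bars give, for each chromosome, the percentage of tested genes whose set levels did not overlap between IVF and Natural (blue) and the percentage with an unadjusted p below 0.05 (yellow). Chromosome 14 is the highest in both, at 3.71% and 11.8%.

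At 39 weeks 9 Natural and 10 IVF single oocytes from other libraries were available. Their labels do not give sets, so oocytes that share a female cannot be told apart and the 39-week values are given as a description, with no test. Of the 27 genes with an unadjusted p below 0.001 at 12 weeks, 18 passed the filter on low counts at 39 weeks and 8 had the same sign, where 5116 of the 10912 genes that passed at both ages had the same sign. Rnase6 had a median of 2.12 CPM in Natural and 1.37 CPM in IVF oocytes at 39 weeks, Dbt 2.37 and 2.27 CPM, and Fam199x 138 and 119 CPM. The study named Bcat2, Hps5, COX1 and ND1 because it found them changed at both ages. Their 39-week values are therefore no independent evidence of a direction. Bcat2 was 21.9 to 173 CPM in the 39-week Natural oocytes and 0.784 to 10.9 CPM in the IVF ones, without overlap. Hps5 was 0.148 to 17.4 CPM in Natural and 39.7 to 121 CPM in IVF oocytes at that age, without overlap, where at 12 weeks Natural sets lay at both levels. COX1 was 375 to 2694 CPM in the 39-week Natural and 283 to 1171 CPM in the IVF oocytes, and ND1 was 150 to 2369 CPM and 105 to 409 CPM. For both genes the groups overlapped.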

How the data were processed

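The deposited values are counts per gene that the authors made from single-oocyte SMART-Seq libraries. The submitters' processing notes name Trimmomatic 0.32, STAR 2.3.0e, featureCounts 1.5.0, DESeq2 and mm10, and whether counting used strand is not given in the sources used here. Of the deposited counts from 1 to 999, 74.5% were even, and the reason was not tested. Groups came from the treatment labels and sets from the library names, and the labels do not name the females.

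Counts were summed per set and tested with edgeR 4.0.16 (quasi-likelihood test, TMM, filterByExpr, Benjamini-Hochberg adjustment over all genes tested, threshold 0.05) in R 4.3.3, with DESeq2 1.42.0 and limma 3.58.1 as alternatives. Scripts were tested on simulated data. Single values per set were compared by an exact two-sided permutation test. Totals per oocyte ranged from 839781 to 10879166 counts, 5 of them under 2000000, so genes near 1 CPM rest on few counts in one oocyte. The between-set share is the variance component of log2 CPM between sets, within groups. No library pair held identical values.

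The members and gene lists were chosen with earlier results of these data known. Genes were named by a rule: markers and genes the study names, up to 12 called genes each with the largest rise and fall whose sets did not overlap at 10 CPM or more, the 10 called genes of highest level, and in each list its called members and the 2 of highest level. Other genes are said to be chosen after their values were seen. The thinning total of 800000 and the limit of 1000 CPM of Gdf9 were also chosen after the data were seen. Ovary and germ cell tables were not used here.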

Additional observations from a re-analysis of the deposited data

Results flagged for a closer look

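In 90 groups of 5 sets, 11 held 1 set whose distance from the next exceeded Dixon's limit of 0.71 of the whole range, where chance gives about 5 in 100 groups. Among the genes of the comparison, Bcat2 was 23.7 CPM in IVF set 1, with the next IVF set at 2.04 CPM, and Aurkc was 161 CPM in IVF set 3, with the next at 74.3 CPM. Tceal8 was 7.36 CPM in Natural set 5 (next 2.50 CPM) and Gulo was 3.37 CPM in Natural set 2 (next 1.87 CPM). Atg14 was lowest in Natural set 2, at 113 CPM, with the next at 133 CPM. ND1 was 1231 CPM in Natural set 5 (next 623 CPM).

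LOC108168162 stood out in both groups, at 0.379 CPM in Natural set 5 and 5.05 CPM in IVF set 3. Gm39701 was 0.0546 CPM in Natural set 3, which is 1 count, and 0 in the other Natural sets. The mitochondrial share was 0.723% in IVF set 3, which held 4 of the 10 oocytes that stood apart, with the next IVF set at 0.331%. The summed cumulus markers were 353 CPM in Natural set 5, with the next Natural set at 168 CPM.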

How the results depend on the processing

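The 4 calls became 54 with DESeq2 on the sums (52 with a fold of at least 1.5), 19 without a filter on low counts, 1 after thinning and 1 with limma on mean log2(CPM + 1). They became 746 and 1091 with each oocyte as a sample (edgeR and DESeq2), and 89 with limma-voom and the set as a random block. In the same order the called list members, 1 in the comparison as reported, were 6, 5, 4, 0, 0, 65, 84 and 7. They were 3 without the 10 oocytes that stood apart. Without the sets of library number 35 or 92 they were 0. Calls numbered 2 without number 92, 126 or 127, and without 92 none of the 4 genes was among them. Leaving out 1 set gave 1 to 8 calls and 0 to 3 list members. Calls numbered 8 without IVF set 1, and 1 without Natural set 1, 2 or 3 or IVF set 2 or 3. Genes without overlap then numbered 291 to 482 (482 without IVF set 1), where 1 set fewer makes a lack of overlap easier to reach. RLE scaling gave 4 calls.

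The spread between oocytes of a set, IVF minus Natural, ranged from -0.0224 to 0.0727 without 1 set, and it was negative without IVF set 3 (-0.0224) or 4 (-0.00769). The difference in cumulus marker level ranged from -36.2 to 25.4 CPM, positive without Natural set 5 (25.4) or IVF set 5 (0.103). At 39 weeks, with single oocytes as samples that may share a female, 104 edgeR calls became 603 with DESeq2, and none is used here. No paired analysis was possible because the sums per set carry no number shared between the groups. The cause of these differences was not tested.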
